A study of Mus musculus with 14 samples.

Results

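The regions described here are the sites of open chromatin assigned to 9 genes for transcription factors linked to the effector state of regulatory T cells (Tregs): Batf, Irf4, Prdm1, Nfil3, Bhlhe40, Maf, Id2, Ikzf3 and Myb. A region belonged to a gene when that gene had the nearest protein-coding transcription start to the region's midpoint on GRCm38, or when the midpoint lay within the gene body. This rule found 237 of the 67254 regions in the deposited table, and 220 of them passed the filter on low counts and were among the 61366 regions tested. The assignment rests on linear distance, so no region is shown to act on the gene whose name it carries. Regions are named below by their gene and by their signed distance in kilobases (kb) from the nearest of that gene's own starts, where a minus sign means upstream.

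The libraries were bulk ATAC-seq (assay for transposase-accessible chromatin with sequencing), in which a transposase inserts adapters into open chromatin, so that a region that is open more often collects more reads. The study compared central Tregs (cTregs, CD44 low) and effector Tregs (eTregs, CD44 high) from spleen, sorted as Foxp3-YFP+ CD4+ cells of CD45.2+ origin out of mixed bone marrow chimeras in which marrow of Foxp3-Cre Atg14+/fl mice (control) or Foxp3-Cre Atg14fl/fl mice (Atg14-deficient) had been mixed with CD45.1+ wild-type marrow and given to sublethally irradiated Rag1-/- hosts. Both genotypes therefore carry the Foxp3-driven Cre and YFP, and the controls also carry a floxed allele of Atg14. Some Atg14fl/fl mice of the study bore an allele already deleted outside Foxp3+ cells, and whether donors of these libraries did is not given in the sources used here. There were 14 libraries, with 3 controls and 4 Atg14-deficient replicates of each cell state. Atg14 is the subunit that directs the class III phosphoinositide 3-kinase Vps34 to autophagosome formation. No age or sex of the chimeras is used here.

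cTregs recirculate through lymphoid organs and carry a program held by factors such as TCF-1, LEF1, BACH2 and SATB1. Upon antigen receptor stimulation some of them become eTregs, which home to tissues and express suppressive molecules. BATF and IRF4 bind DNA together at composite AP-1 and IRF sites downstream of the antigen receptor and act early in this step. Prdm1 encodes BLIMP-1, a repressor of terminally differentiated eTregs that make IL-10, and Maf encodes c-MAF, which drives IL-10 and is prominent in intestinal Tregs. NFIL3 is a leucine zipper repressor, BHLHE40 a basic helix-loop-helix repressor induced by receptor signals, ID2 an inhibitor of E proteins, Ikzf3 encodes the zinc finger protein Aiolos, and MYB is required for the differentiation of a subset of eTregs.

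The regions lay mostly far from promoters. Of the 237, 37 lay in the body of the gene they were assigned to and 200 outside it, 156 lay between genes, 44 lay in another gene and 103 were more than 100 kb from the start. Id2 had 45 regions, all outside its short gene body, and Maf had 58, out to 617 kb downstream of its start and in part in introns of Wwox. Bhlhe40 had 32 regions, 12 of them in a neighbouring gene such as Itpr1, Prdm1 had 29, Irf4 had 24, of which 10 lay in Exoc2, and Myb and Ikzf3 had 13 each, Batf 12 and Nfil3 11. All 13 regions of Ikzf3 lay within its gene body. Among the tested regions, 14 of 220 (6.36%) were within 1000 bp of a start, against 23.3% of all tested regions, and the median distance from the nearest start was 77.5 kb against 13.1 kb. Their median length of 348 bp, GC content of 48.7% and mean accessibility of 6.34 CPM (counts per 1000000 reads counted in the library) were near those of all tested regions (340.0 bp, 49.4% and 6.68 CPM).

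The central 200 bp of regions that differed between eTregs and cTregs in both genotypes are shown for 5 of the genes, as plus strand sequence of GRCm38 from RefSeq, to show which factor motifs stand at the sites the results below turn on. Capitals mark exact matches on either strand to AP-1 (TGANTCA), Ets (CAGGAAG), Myb (CAACNG), Ikaros (TGGGAA) or a composite site of BATF and IRF, which is an IRF core placed 4 bases before an AP-1 site and therefore contains the AP-1 letters. The windows are chr13:30760397-30760596 in an intron of Irf4, chr10:44400748-44400947 between genes, chr6:108524316-108524515 in an intron of Itpr1, chr12:25208941-25209140 between genes and chr10:21186812-21187011 between genes.
Irf4 +11.3 kb: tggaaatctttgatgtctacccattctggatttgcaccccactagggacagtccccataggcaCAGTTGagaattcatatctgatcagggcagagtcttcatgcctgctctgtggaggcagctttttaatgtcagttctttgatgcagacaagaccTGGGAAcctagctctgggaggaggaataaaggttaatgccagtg
Prdm1 +49.2 kb: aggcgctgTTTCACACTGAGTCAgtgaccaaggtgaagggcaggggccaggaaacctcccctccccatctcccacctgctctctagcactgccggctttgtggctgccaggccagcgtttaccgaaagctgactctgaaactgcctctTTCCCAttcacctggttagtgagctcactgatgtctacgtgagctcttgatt
Bhlhe40 -136 kb: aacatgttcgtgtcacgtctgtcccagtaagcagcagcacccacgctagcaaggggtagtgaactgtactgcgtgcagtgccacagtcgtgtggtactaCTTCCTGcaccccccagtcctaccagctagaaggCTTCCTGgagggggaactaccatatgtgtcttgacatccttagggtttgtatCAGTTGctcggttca
Id2 -113 kb: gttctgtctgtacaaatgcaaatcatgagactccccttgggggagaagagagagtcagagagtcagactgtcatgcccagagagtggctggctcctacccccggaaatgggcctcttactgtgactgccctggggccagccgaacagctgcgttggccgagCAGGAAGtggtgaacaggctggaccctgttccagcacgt
Myb -25.9 kb: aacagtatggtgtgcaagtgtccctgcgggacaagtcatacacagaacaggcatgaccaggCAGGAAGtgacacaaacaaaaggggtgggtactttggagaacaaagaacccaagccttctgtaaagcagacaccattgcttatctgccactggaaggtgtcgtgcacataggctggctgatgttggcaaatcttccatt

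In the Irf4 window the first run of capitals is the Myb motif on the minus strand and the second is Ikaros. In the Prdm1 window the long run is the composite of BATF and IRF, with AP-1 as its end, and the short run is Ikaros on the minus strand. The Bhlhe40 window held a pair of Ets matches and a Myb match, and the Id2 and Myb windows each held a single Ets match. Where several regions of a gene picked by the naming rule qualified, the window with the most matches to the marked motifs is shown. Also called in both genotypes but not shown were Bhlhe40 -89.3 kb, with Myb and KLF (GGGNGTGG) matches, and Nfil3 +0.275 kb, with an NFIL3 match (TTACNTAA). The windows of Prdm1 -176 kb, Nfil3 +3.52 kb and Maf +88.5 kb, which also differed in both genotypes, held none of the motifs searched, which says only that the letters are not in these windows. Short motifs are frequent: Ets letters stood in the central 200 bp of 17.8% of all tested regions with sequence, Myb letters in 26.6%, Ikaros letters in 13.6% and AP-1 letters in 11.5%, while the composite stood in 0.285%.

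Depth was 2242983 to 5548189 counted reads per library, and the median tested region had a mean count of 23.0 per library, so single regions far from promoters rest on few reads. The replicates of a group count chimera mice, from which both cell states were sorted, and the labels do not say which cTreg and eTreg libraries came from the same mouse. Atg14 was examined first. Its promoter region (chr14:47567952-47568659) had means of 28.5 ± 6.4 CPM in controls (SD, n = 3) and 21.8 ± 4.04 CPM in Atg14-deficient cells (n = 4) among cTregs, and of 24.2 ± 6.12 and 24.8 ± 3.91 CPM among eTregs. The genotypes did not differ there (log2 fold change 0.03, adjusted p = 0.987 in eTregs and -0.38, adjusted p = 1 in cTregs, edgeR), and since the deleted exons are not given in the sources used here, this region checks nothing about the deletion. Of the promoters of Treg genes, 4 of 6 had a region within 1000 bp (Il2ra, Ikzf2, Ctla4 and Cd3e), and the nearest regions of Foxp3 and Cd4 lay at +3.65 and +2.86 kb. Of the B cell markers, 0 of 5 had a promoter region. The promoter of Cd8b1, a CD8 T cell marker, moved with the cell state, from means of 16.1 and 16.3 CPM in cTregs to 4.35 and 4.94 CPM in eTregs (adjusted p = 0.00471 and 0.00233), and its part in the results below was not tested. Cd8a had no promoter region. Summed over the 4 Treg promoters, accessibility was 125 to 132 CPM in control cTregs, 137 to 167 in Atg14-deficient cTregs, 93.7 to 97.4 in control eTregs and 118 to 126 in Atg14-deficient eTregs, and summed over 2 of 3 plasma cell genes it was 24.4 to 36.6, 31.8 to 40.3, 34.8 to 42.2 and 40.5 to 52.9 CPM in the same order. The Treg sums of control eTregs lay below those of Atg14-deficient eTregs, the plasma cell sums of these groups overlapped, and their part in the comparisons of genotypes was not tested.

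To ask how the loci differ between cell states, control eTregs were compared with control cTregs and, separately, Atg14-deficient eTregs with Atg14-deficient cTregs. These comparisons share no library. A region was called when its Benjamini-Hochberg adjusted p over all 61366 tested regions was below 0.05 and its log2 fold change beyond 0.5. The loci moved in different directions: called regions of Irf4 and Myb were all lower in eTregs, those of Nfil3, Maf and Batf were all higher, and those of Prdm1, Id2 and Bhlhe40 went both ways in 1 genotype or both, although all called regions of Bhlhe40 but 1 were lower. In controls 16 of 220 regions (7.27%) were called, 6 higher and 10 lower in eTregs, beside 5.3% of all tested regions (2.01% higher, 3.29% lower). In Atg14-deficient cells 29 regions (13.2%) were called, 15 higher and 14 lower, beside 9.81% of all tested regions (4.41% higher, 5.4% lower). The split moved with scaling: GC loess offsets gave 10 higher and 10 lower in controls (9.09%, background in that fit 5.48%). The share of a library's counts in promoters as a covariate gave 24 higher and 12 lower in controls and 39 higher and 16 lower in Atg14-deficient cells. In that fit 16.4% and 25% of the members were called, beside 11.1% and 17.7% of all tested regions. Where p was left unadjusted and only had to be below 0.05, with the fold threshold unchanged, 57 regions (25.9%, background 18.2%) passed in controls and 63 (28.6%, background 23.1%) in Atg14-deficient cells. The counts also moved with single libraries. In controls they fell to 6 without cTreg replicate 1 (2.73%, background in that fit 1.75%) or eTreg replicate 1 (2.73%, background 2.12%). They were 8 without cTreg replicate 3 (3.64%, background 2.44%), 9 without eTreg replicate 3 (4.09%, background 3.51%) and 10 without eTreg replicate 2 (4.55%, background 2.69%). In Atg14-deficient cells they were 12 without cTreg replicate 3 (5.53%, background 4.62%), 16 without eTreg replicate 4 (7.37%, background 5.79%) and 18 without eTreg replicate 1 (8.22%, background 6.1%). The share over all tested regions thus fell as well. Taking same-numbered cTreg and eTreg libraries as pairs gave 36 called regions in controls (16.4%) and 40 in Atg14-deficient cells (18.2%), beside 10.4% and 15.5% of all tested regions in that fit. By gene, the called share in controls and in Atg14-deficient cells was 16.7% and 16.7% for Irf4, 12.9% and 19.4% for Bhlhe40, 22.2% and 22.2% for Nfil3 and 8.33% and 16.7% for Myb. It was 6.9% and 17.2% for Prdm1, 5% and 7.5% for Id2 and 1.85% and 11.1% for Maf, so that the control shares of Prdm1, Id2 and Maf were near or below the background. In bulk libraries a smaller share of cells with an open region and a less open region in each cell cannot be told apart.

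Of the 32 regions called in either genotype, 13 were called in both and in the same direction, which is 81.2% of those called in controls and 44.8% of those called in Atg14-deficient cells. Over all tested regions the corresponding shares were 62.3% and 33.6%. All 16 regions called in controls had the same sign in Atg14-deficient cells, and 28 of the 29 called in Atg14-deficient cells had the same sign in controls. The exception was Maf +430 kb. Over all tested regions the same sign held for 3224 of 3251 and 5837 of 6021 called regions, so the members stood near the background.

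**Figure D1:**
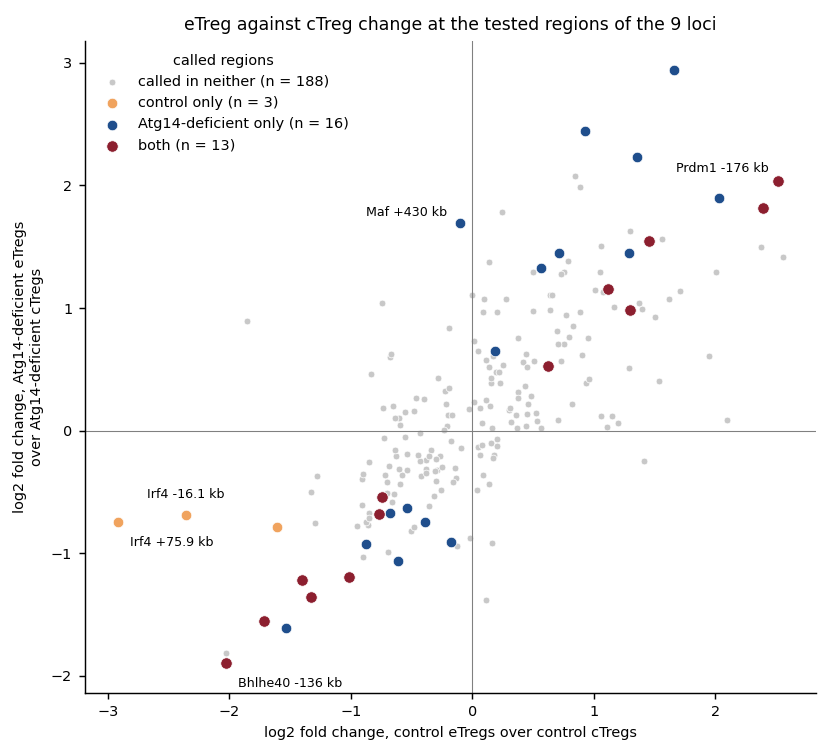
Each of the 220 tested regions is a point, with its log2 fold change of eTregs over cTregs in controls on the horizontal axis and in Atg14-deficient cells on the vertical axis, coloured by where it was called (13 in both, 3 in controls only, 16 in Atg14-deficient cells only, 188 in neither). Called regions fall mainly at the lower left and upper right, while Irf4 +75.9 kb and Irf4 -16.1 kb lie far to the left with smaller changes on the vertical axis.

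The Irf4 locus was less accessible in eTregs. All 4 of its regions called in controls and all 4 called in Atg14-deficient cells were lower in eTregs, and 2 were called in both. The median log2 fold change over its 24 regions was -0.46 in controls and -0.21 in Atg14-deficient cells, and 5 and 7 of the 24 were above 0. The region Irf4 +11.3 kb (chr13:30760260-30760735), in an intron of Irf4, had 36.9, 40.9 and 30.3 CPM in control cTregs and 15.9, 17.3 and 20.2 CPM in control eTregs. In Atg14-deficient cells it had 41.6, 28.8, 43.9 and 46.3 CPM in cTregs and 20.4, 13.4, 21.7 and 14.4 CPM in eTregs. Every eTreg library lay below every cTreg library. The log2 fold change was -1.02 ± 0.23 (SE, adjusted p = 0.0076) in controls and -1.19 ± 0.20 (adjusted p = 0.000423) in Atg14-deficient cells by edgeR, and both calls held whichever of the 14 libraries was left out.

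Nearer to the start, the promoter region Irf4 -0.68 kb (chr13:30748393-30748713) had 20.2, 16.4, 19.5 and 18.6 CPM in Atg14-deficient cTregs and 11.7, 7.95, 9.53 and 6.42 CPM in Atg14-deficient eTregs, without overlap (log2 fold change -1.07 ± 0.27, adjusted p = 0.0118, and 0.0509 without Atg14-deficient eTreg replicate 4). Control cTregs were spread more widely at this promoter, at 17.8, 25.1 and 9.81 CPM against 11.1, 11.5 and 12.4 CPM in control eTregs. These control groups overlapped and the change was not called (-0.62 ± 0.30, adjusted p = 0.242). Irf4 -6.67 kb (chr13:30742246-30742887), chosen for mention after its values were seen, was called in both genotypes (-1.40, adjusted p = 0.0321 and -1.22, adjusted p = 0.0169). How these calls held with single libraries left out is not given here. Irf4 +43.2 kb (chr13:30792151-30792728), in an intron of Exoc2, was called in Atg14-deficient cells only (-0.67, adjusted p = 0.0316), beside -0.68 and adjusted p = 0.0934 in controls. That call did not hold without Atg14-deficient cTreg replicate 1 or 3 or eTreg replicate 2 or 4, where adjusted p reached 0.147.

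The remaining called regions of Irf4 held only a few reads in control eTregs. Irf4 +75.9 kb (chr13:30824973-30825232, Exoc2 intron) had 8.31, 3.83 and 2.67 CPM in control cTregs and 0.651, 0.525 and 0.721 CPM in control eTregs, the last being 2, 2 and 4 reads. In Atg14-deficient cells it had 5.88, 5.45, 3.15 and 5.78 CPM in cTregs and 3.60, 2.51, 3.71 and 2.05 CPM in eTregs. Control eTregs lay below all other libraries. The change was -2.92 ± 0.62 (adjusted p = 0.0055) in controls, which became -2.31 (adjusted p = 0.0821) without control cTreg replicate 1, and -0.75 ± 0.46 (adjusted p = 0.315) in Atg14-deficient cells. Irf4 -16.1 kb (chr13:30732821-30733401, between genes) had 7.33, 7.18 and 8.03 CPM in control cTregs and 0.651, 0.525 and 2.70 CPM in control eTregs, from 2, 2 and 15 reads. Its Atg14-deficient libraries had 10.1, 6.23, 6.31 and 7.71 CPM in cTregs and 3.00, 8.37, 4.76 and 3.08 CPM in eTregs, which overlapped. The change was -2.36 ± 0.53 (adjusted p = 0.00773, below 0.05 with any library left out) in controls and -0.69 ± 0.41 (adjusted p = 0.30) in Atg14-deficient cells. With single libraries left out, the control value ranged from -3.6 to -2.0. Whether the state changes differ between genotypes is a separate test, given with the interaction.

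Bhlhe40 had 4 lower regions in controls and 5 lower and 1 higher in Atg14-deficient cells, of 31 tested, and its median log2 fold change was -0.30 and -0.29. The called regions that fell lay between -136 and -87.7 kb, in Itpr1 or just beyond it. Bhlhe40 -136 kb (chr6:108524243-108524589, Itpr1 intron) had 14.7, 12.9 and 12.5 CPM in control cTregs and 2.60, 4.72 and 2.52 CPM in control eTregs. In Atg14-deficient cells the values were 18.5, 17.1, 17.6 and 14.1 CPM in cTregs and 5.99, 4.18, 3.71 and 4.11 CPM in eTregs. No eTreg library reached 6 CPM and no cTreg library fell below 12 CPM. The log2 fold changes were -2.03 ± 0.34 (adjusted p = 0.000824) and -1.90 ± 0.29 (adjusted p = 0.000213), and both calls held with any library left out. Bhlhe40 -89.3 kb (chr6:108570989-108571606) fell from a mean of 44.9 to 25.9 CPM in controls (-0.77, adjusted p = 0.0224) and from 49.0 to 30.7 CPM in Atg14-deficient cells (-0.68, adjusted p = 0.0128), without overlap in either. Its control call was lost without control cTreg replicate 1 or 3 or eTreg replicate 1 or 2 (adjusted p up to 0.138), and its other call without Atg14-deficient cTreg replicate 3 (adjusted p = 0.0519).

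The promoter of Bhlhe40 did not follow these upstream regions. Bhlhe40 -0.036 kb had means of 93.6 ± 11.28 and 103.9 ± 6.11 CPM in cTregs and eTregs of controls (n = 3 each) and of 95.9 ± 7.82 and 109.9 ± 12.8 CPM in those of Atg14-deficient chimeras (n = 4 each), and was called in neither genotype (adjusted p = 0.57 and 0.27, edgeR). Just upstream, Bhlhe40 -1.05 kb (chr6:108659309-108659840) had 32.3, 37.8, 27.1 and 20.6 CPM in Atg14-deficient cTregs and 50.0, 45.2, 42.9 and 45.5 CPM in Atg14-deficient eTregs. All of these eTreg libraries were above the cTreg libraries (0.65 ± 0.17, adjusted p = 0.0138, and 0.0564 without Atg14-deficient cTreg replicate 3). In controls the same region had 34.2, 45.7 and 42.8 CPM in cTregs and 49.1, 39.9 and 49.9 CPM in eTregs, and did not differ by the test (0.18 ± 0.19, adjusted p = 0.641).

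Myb had 1 region called in controls and 2 in Atg14-deficient cells, all lower in eTregs. Myb -25.9 kb (chr10:21186744-21187080, between genes) had 30.6, 18.9 and 25.4 CPM in control cTregs and 11.7, 10.5 and 7.93 CPM in control eTregs. Atg14-deficient libraries had 31.9, 22.6, 32.1 and 25.7 CPM in cTregs and 8.99, 15.1, 9.53 and 10.8 CPM in eTregs. The eTreg and cTreg libraries did not overlap in either genotype, the log2 fold change was -1.33 ± 0.27 (adjusted p = 0.00386) in controls and -1.36 ± 0.24 (adjusted p = 0.000655) in Atg14-deficient cells, and leaving out any library kept both calls. Myb -17.5 kb (chr10:21178284-21178663) had nearly the same change in both genotypes (-0.88, adjusted p = 0.0957 and -0.92, adjusted p = 0.0288) and was called in the second only, a call that was lost without Atg14-deficient cTreg replicate 2 or 3 or eTreg replicate 1 or 4 (adjusted p up to 0.129). The promoter of Myb was called in neither comparison (-0.26 and -0.20, adjusted p = 0.68 and 0.67).

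**Figure D2:**
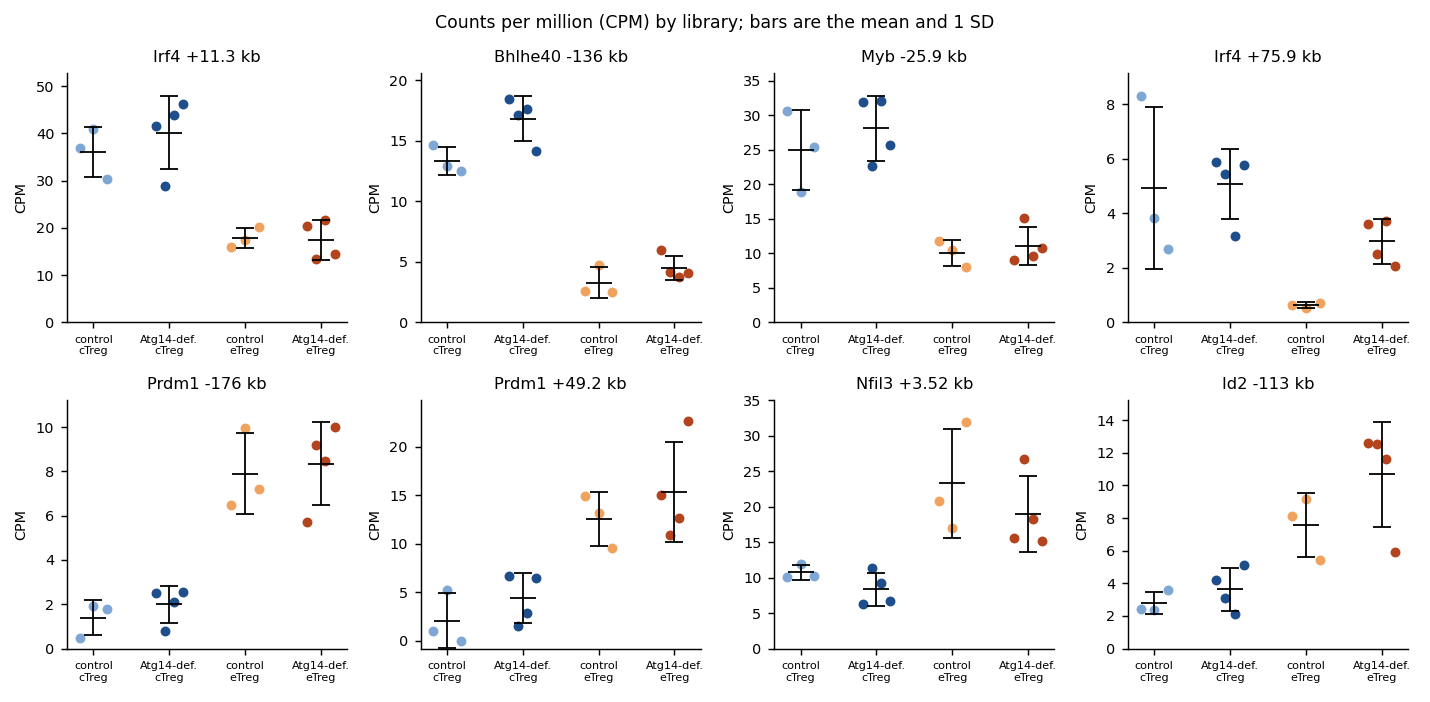
CPM of 8 named regions, with a point for each library and bars for the mean and 1 SD of each group (n = 3 for controls, n = 4 for Atg14-deficient cells). In the panels of Irf4 +11.3 kb, Bhlhe40 -136 kb and Myb -25.9 kb the eTreg points lie below all cTreg points, in those of Prdm1 -176 kb, Prdm1 +49.2 kb, Nfil3 +3.52 kb and Id2 -113 kb they lie above them, and at Irf4 +75.9 kb the control eTreg points stand at 0.525 to 0.721 CPM, below the other groups.

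Prdm1 had called regions at a distance on either side, and its promoter was not called. Of its 29 regions, 2 were higher and none lower in control eTregs, and 3 were higher and 2 lower in Atg14-deficient eTregs. Prdm1 -176 kb (chr10:44704220-44704514, between genes) had 0.489, 1.91 and 1.78 CPM in control cTregs and 6.51, 9.97 and 7.21 CPM in control eTregs. In Atg14-deficient cells it had 2.52, 0.779, 2.10 and 2.57 CPM in cTregs and 5.69, 9.20, 8.47 and 10.02 CPM in eTregs. Every eTreg library was above every cTreg library, with log2 fold changes of 2.52 ± 0.51 (adjusted p = 0.00394) and 2.03 ± 0.43 (adjusted p = 0.00327) that stayed called with any library left out. It was 1 of 7 tested regions more than 100 kb upstream of Prdm1, between -196 and -148 kb, a group singled out after its values were seen. All 7 were higher in eTregs by fitted value, by 0.80 to 2.56 in controls and 0.76 to 2.03 in Atg14-deficient cells, and 1 and 2 of them were called, the additional one being Prdm1 -188 kb (2.03, adjusted p = 0.0538 and 1.90, adjusted p = 0.0326).

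Downstream, Prdm1 +49.2 kb (chr10:44400567-44401129), whose centre holds the composite of BATF and IRF shown above, had 0.978, 5.27 and 0 CPM in control cTregs and 14.96, 13.1 and 9.55 CPM in control eTregs. Atg14-deficient cTregs had 6.72, 1.56, 2.89 and 6.42 CPM and Atg14-deficient eTregs 14.98, 10.9, 12.7 and 22.6 CPM. The states did not overlap in either genotype (2.39 ± 0.58, adjusted p = 0.0172 and 1.82 ± 0.47, adjusted p = 0.0173). The control value ranged from 1.98 to 4.26 with single libraries left out, the highest without cTreg replicate 2, and control cTregs held 4, 22 and 0 reads there. The control call was lost without control cTreg replicate 1 (adjusted p = 0.11) or eTreg replicate 1 (0.0663) or 2 (0.0512), and the Atg14-deficient call without cTreg replicate 3 (0.0728) or eTreg replicate 4 (0.0716). Within the gene, Prdm1 +1.76 kb (chr10:44448082-44448500, 5' UTR of Prdm1) had 28.6, 28.0, 31.0 and 31.2 CPM in Atg14-deficient cTregs and 14.98, 17.2, 18.5 and 20.03 CPM in Atg14-deficient eTregs, a fall of -0.75 ± 0.20 in log2 (adjusted p = 0.0148, and 0.0534 without eTreg replicate 1), beside -0.39 (adjusted p = 0.346) in controls. Prdm1 +22.5 kb fell in Atg14-deficient cells (-1.61, adjusted p = 0.0322), a call that 7 of the 8 Atg14-deficient libraries could each end when left out (adjusted p 0.0507 to 0.0678). The promoter Prdm1 -0.077 kb had means of 58.2, 56.6, 61.1 and 59.2 CPM in control cTregs, Atg14-deficient cTregs and the matching eTregs (adjusted p = 0.86 and 0.83).

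Nfil3 opened at its promoter and in its intron. Nfil3 +3.52 kb (chr13:52976390-52976948) had 10.02, 11.97 and 10.3 CPM in control cTregs and 20.8, 17.1 and 31.9 CPM in control eTregs. In Atg14-deficient cells the values were 6.30, 11.3, 9.20 and 6.75 CPM in cTregs and 15.6, 26.8, 18.3 and 15.2 CPM in eTregs. No eTreg library overlapped a cTreg library (1.12 ± 0.30, adjusted p = 0.0244 and 1.15 ± 0.27, adjusted p = 0.00761). The call in controls did not hold without control cTreg replicate 1 (adjusted p = 0.117) or 3 (0.0752) or control eTreg replicate 1 (0.0533) or 3 (0.17), while that in Atg14-deficient cells held throughout. The promoter region Nfil3 +0.275 kb (chr13:52980192-52981337) had 31.3, 26.3 and 33.0 CPM in control cTregs against 42.9, 35.2 and 59.8 CPM in control eTregs, and 26.5, 28.4, 29.4 and 30.8 CPM against 41.9, 44.3, 41.8 and 38.8 CPM in Atg14-deficient cells. These groups did not overlap either, but the changes lay close to the thresholds (0.62 ± 0.19, adjusted p = 0.0465 and 0.53 ± 0.17, adjusted p = 0.0391). They were lost with 9 and 7 of the 14 libraries left out in turn, in controls with adjusted p up to 0.321 (without control eTreg replicate 3, where the change was 0.37) and in Atg14-deficient cells, where all but cTreg replicate 4 could end the call, up to 0.0938.

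Maf had a single region called in controls and 6 in Atg14-deficient cells, all higher in eTregs, of 54 tested. At the unadjusted threshold 7 passed as higher and 7 as lower in controls, beside 4762 and 6380 of all 61366, and 20 as higher and 2 as lower in Atg14-deficient cells, beside 6984 and 7214, with median log2 fold changes of 0.34 and 0.67. Maf +88.5 kb (chr8:115618043-115618752) had 11.7, 14.4 and 7.13 CPM in control cTregs and 27.3, 32.8 and 24.0 CPM in control eTregs, without overlap (1.29 ± 0.36, adjusted p = 0.0363). In Atg14-deficient cells it had 12.6, 4.67, 11.04 and 24.4 CPM in cTregs and 30.6, 17.6, 33.9 and 22.6 CPM in eTregs, which overlapped (0.98 ± 0.32, adjusted p = 0.0477). These calls were lost with 5 and 10 of the 14 libraries left out in turn, the first with every control library but cTreg replicate 2 and up to adjusted p = 0.14, the second up to 0.141. Maf +321 kb (chr8:115385532-115386162) had means of 3.46 and 8.72 CPM in control cTregs and eTregs (1.29, adjusted p = 0.0673) and 4.41 and 12.04 CPM in the Atg14-deficient groups (1.45 ± 0.36, adjusted p = 0.0106, and 0.0573 without cTreg replicate 3).

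Further called regions of Maf, chosen for mention after their values were seen, were +175 kb (2.44, adjusted p = 0.009), -64.3 kb (1.32, adjusted p = 0.0134) and -134 kb (2.94, adjusted p = 0.0257) in Atg14-deficient cells, beside 0.93, 0.57 and 1.66 in controls, where none was called. The first and the last of these had means below 7 CPM in every group. Maf +430 kb (chr8:115276244-115276654, Wwox intron) had 6.60, 13.9 and 5.796 CPM in control cTregs and 8.46, 11.02 and 5.77 CPM in control eTregs. Atg14-deficient libraries had 5.88, 3.11, 3.68 and 5.78 CPM in cTregs and 17.98, 10.9, 8.47 and 22.1 CPM in eTregs. The states overlapped fully in controls (-0.10, adjusted p = 0.919) and separated in Atg14-deficient cells (1.70 ± 0.37, adjusted p = 0.00391, held with any library left out). The promoter of Maf (-0.723 kb) was called in neither (0.07 and 0.18, adjusted p = 0.83 and 0.33).

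Id2 had 2 called regions of 40 in controls and 3 in Atg14-deficient cells, in both directions and all far upstream, a share at or below that of all tested regions. Id2 -113 kb (chr12:25208845-25209238) had 2.44, 2.39 and 3.57 CPM in control cTregs and 8.13, 9.18 and 5.41 CPM in control eTregs. Atg14-deficient cTregs had 4.20, 3.11, 2.10 and 5.14 CPM and eTregs 12.6, 12.6, 11.6 and 5.91 CPM. Both sets of states were apart, the second by a narrow gap because Atg14-deficient eTreg replicate 4 was low (1.45 ± 0.44, adjusted p = 0.0494 and 1.55 ± 0.37, adjusted p = 0.00863). The control call was lost with 9 of the 14 libraries left out in turn (adjusted p up to 0.181, without control cTreg replicate 1) and the other held. Id2 -133 kb (chr12:25228705-25229027) rose in Atg14-deficient cells (2.24 ± 0.64, adjusted p = 0.0253), beside 1.35 (adjusted p = 0.259) in controls, and 5 of the libraries could each end that call (adjusted p up to 0.101, without eTreg replicate 4). Neighbouring regions fell instead: Id2 -172 kb (chr12:25267653-25268146) had 8.80, 8.62 and 13.4 CPM in control cTregs and 1.95, 3.94 and 3.79 CPM in control eTregs (-1.61 ± 0.46, adjusted p = 0.0375), while its Atg14-deficient groups overlapped (-0.79, adjusted p = 0.227). Id2 -171 kb (chr12:25266718-25267112) fell in Atg14-deficient cells (-0.91 ± 0.29, adjusted p = 0.0427), beside -0.17 (adjusted p = 0.822) and overlapping groups in controls. Leaving out single libraries ended these calls in 5 and 8 of 14 cases, including every control library but cTreg replicate 2 for the first. The Id2 promoter had means of 104.9, 94.2, 85.0 and 75.5 CPM in control cTregs, Atg14-deficient cTregs, control eTregs and Atg14-deficient eTregs, in that order (adjusted p = 0.343 and 0.154).

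Batf and Ikzf3 had the fewest called regions, 1 and 0. Batf +17 kb (chr12:85703594-85703856), in a Batf intron, had 2.44, 5.74 and 3.57 CPM in control cTregs and 4.55, 5.77 and 8.83 CPM in control eTregs, which overlapped (0.71, adjusted p = 0.39). In Atg14-deficient cells it had 3.36, 3.89, 2.63 and 5.78 CPM in cTregs and 8.39, 10.5, 6.88 and 17.0 CPM in eTregs, without overlap (1.45 ± 0.39, adjusted p = 0.0167, but 0.0757 without cTreg replicate 3 and 0.104 without eTreg replicate 4). None of the 10 tested regions of Ikzf3 was called in either comparison, and 0 and 2 passed the unadjusted threshold. Its promoter had means of 7.84, 7.41, 5.87 and 7.40 CPM in the same order (adjusted p = 0.60 and 0.98).

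**Figure D3:**
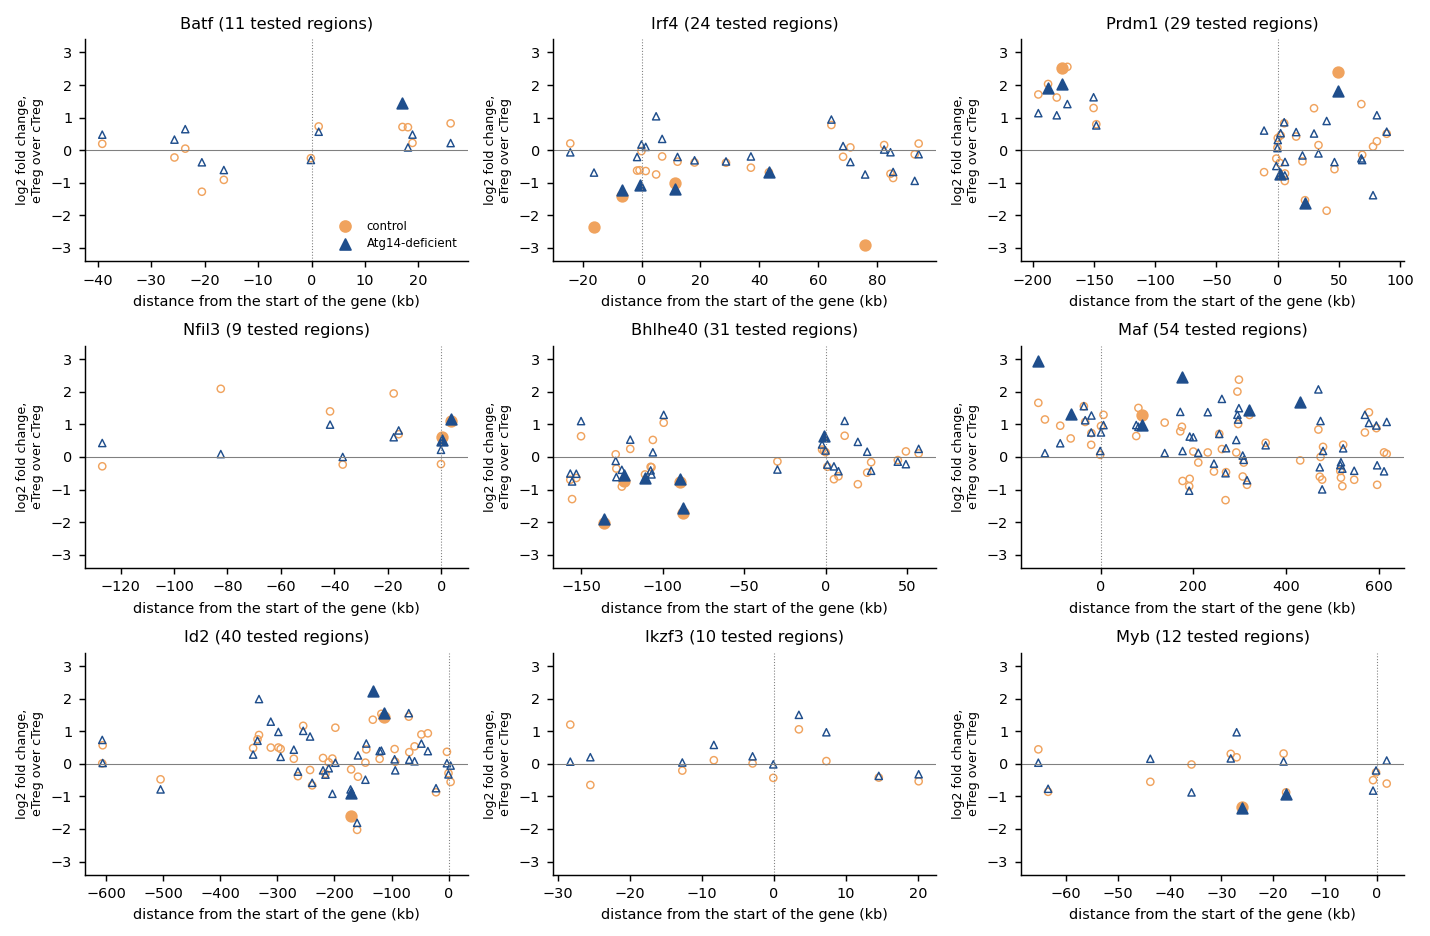
For each gene, the log2 fold change of eTregs over cTregs of every tested region is plotted against its distance in kb from the start of the gene, as circles for controls and triangles for Atg14-deficient cells, filled where the region was called. The filled symbols of Bhlhe40 lie below 0 between -136 and -87.7 kb, except a filled triangle above 0 at -1.05 kb, and those of Maf lie above 0, while Ikzf3 has no filled symbol.

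Per kb of region length, the promoters were ordered alike in the 4 groups at the top. In control cTregs the promoter region of Id2 had 239.5 CPM per kb, Bhlhe40 105, Prdm1 83.4, Maf 70.4, Irf4 54.8, Myb 31.2, Batf 30.0, Nfil3 26.4 and Ikzf3 19.6. In control eTregs Nfil3, at 40.1, stood above Irf4, at 36.4, and in Atg14-deficient eTregs the levels were 36.4 and 27.7 CPM per kb. Only the promoters of Nfil3 (both genotypes) and Irf4 (Atg14-deficient cells) were called between states, so the other neighbours in this order were not shown to change places.

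When the counts of all regions with the same nearest gene were summed, giving a locus total for each of 15264 genes, Nfil3 was called higher in eTregs in both genotypes and Irf4 lower in controls. In the background 5.83% of genes were called in controls and 11.8% in Atg14-deficient cells. The Nfil3 total was 76.3, 78.0 and 69.996 CPM in control cTregs and 115, 107 and 130.5 CPM in control eTregs, and 71.8, 69.3, 68.6 and 89.3 CPM in Atg14-deficient cTregs and 121, 110.03, 102 and 131 CPM in Atg14-deficient eTregs. The states did not overlap, and the changes were nearly equal (0.65 ± 0.13, adjusted p = 0.00286 and 0.64 ± 0.11, adjusted p = 0.000614, edgeR). The total of Pax5, a B cell marker, moved with that of Nfil3, from 15.6 to 23.2 CPM in control and 17.9 to 27.9 CPM in Atg14-deficient cTregs to between 36.7 and 48.1 CPM and between 29.4 and 41.4 CPM in the matching eTregs (1.13, adjusted p = 0.00178 and 0.84, adjusted p = 0.00375). Of the 5 B cell markers 3 had regions, none at a promoter, and Cd79a and Cd79b were not called (adjusted p from 0.226 to 0.88). Summed over the list the levels were 24.5 to 38.5 and 30.5 to 39.5 CPM in control and Atg14-deficient cTregs and 45.4 to 59.2 and 41.6 to 55.0 CPM in the eTregs. Their part in the Nfil3 result was not tested. The Irf4 total was 284, 306 and 251 CPM in control cTregs and 189, 184 and 208 CPM in control eTregs, and 317, 264, 360.5 and 315 CPM against 280.2, 224, 266 and 199 CPM in Atg14-deficient cells. It was apart in controls (-0.54 ± 0.12, adjusted p = 0.0091, and under the fold threshold at -0.47 without control cTreg replicate 2) and overlapped in Atg14-deficient cells, where its change was significant but under the fold threshold (-0.37 ± 0.11, adjusted p = 0.0187). Myb behaved likewise, with -0.44 (adjusted p = 0.0142) and -0.34 (adjusted p = 0.0164), both under the fold threshold. The other 6 totals, of Batf, Bhlhe40, Maf, Prdm1, Id2 and Ikzf3, changed by -0.24 to 0.44 with no adjusted p below 0.05.

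**Figure D4:**
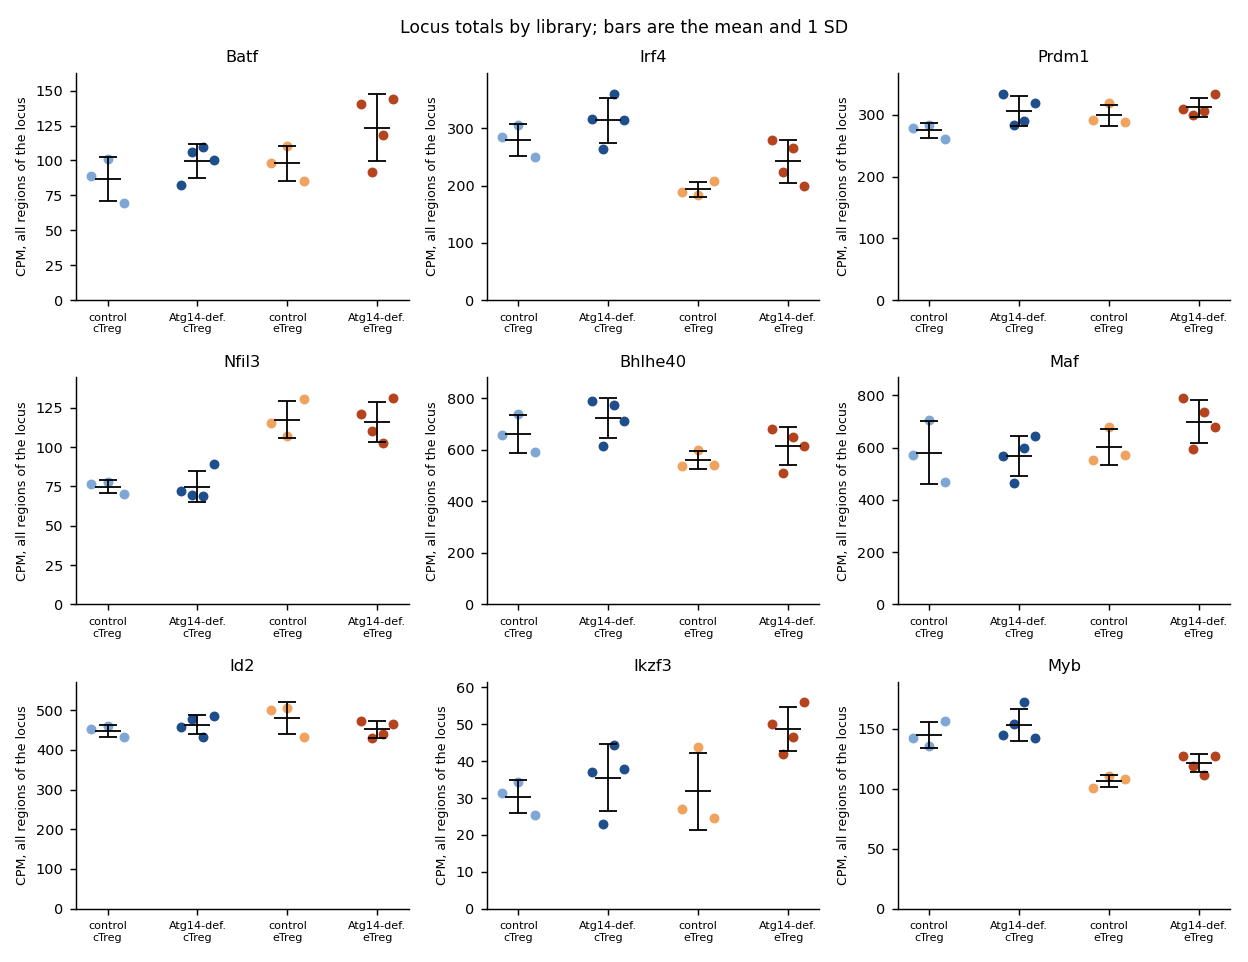
Locus totals in CPM, summed over all regions nearest to each of the 9 genes, with a point for each library and bars for the mean and 1 SD of the 4 groups. The 7 eTreg points of Nfil3 (102 to 131 CPM) lie above its 7 cTreg points (68.6 to 89.3 CPM), and the control eTreg points of Irf4 (184 to 208 CPM) lie below all of its cTreg points.

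The effect of Atg14 deficiency within eTregs and within cTregs was then examined at the same regions. The comparison in eTregs uses the same control eTreg libraries as the state comparison in controls. None of the 220 regions was called in eTregs (background 0.0228%) or in cTregs (background 0.0163%) by edgeR. At the unadjusted threshold, 11 regions (5%) passed in eTregs, all of them higher in Atg14-deficient cells, beside 6.36% of all tested regions (4.59% higher). In cTregs 11 regions (5%) passed, 8 higher and 3 lower, beside 3.34% (1.99% higher, 1.35% lower). The share in eTregs stood near the background, and the count was 26 (11.8%, background in that fit 7.81%) without Atg14-deficient eTreg replicate 2 and 19 (8.64%, background 7.71%) without control eTreg replicate 2. In cTregs it was 7 (3.2%, background 3.02%) without Atg14-deficient cTreg replicate 1. GC loess offsets gave 8 higher and 1 lower in eTregs (4.09%, background in that fit 6.17%) and 6 higher and 4 lower in cTregs (4.55%, background 3.4%). TMM normalization gave 7 higher and 5 lower in cTregs (5.45%, background 3.42%). The median log2 fold change in eTregs was 0.23 with 150 of 220 regions above 0, against 0.06 with 34480 of 61366 over all tested regions, and in cTregs 0.06 with 134 of 220, against 0.03. The loci of the comparison lists described below were shifted alike in eTregs, with a median of 0.26 and 203 of 291 regions above 0 for central Treg factors and 0.23 and 116 of 160 for effector program genes, so the shift is not particular to the effector factors.

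Of the 11 regions that passed in eTregs, 4 belonged to Irf4, 2 each to Maf and Prdm1, and 1 each to Bhlhe40, Myb and Nfil3. The pair with the smallest p were the 2 Irf4 regions whose values are given above. At Irf4 +75.9 kb the control eTregs at 0.525 to 0.721 CPM lay below the Atg14-deficient eTregs at 2.05 to 3.71 CPM, from 2, 2 and 4 reads against 12, 6, 14 and 8 (log2 fold change 2.16, 95% interval 0.89 to 3.42, unadjusted p = 0.00154, adjusted p = 0.344, edgeR). Irf4 -16.1 kb was also apart between genotypes in eTregs, at 0.525 to 2.70 against 3.00 to 8.37 CPM (1.68 ± 0.52, unadjusted p = 0.00289, adjusted p = 0.385). Maf +192 kb (chr8:115514469-115514850, between genes) had 6.18, 4.72 and 4.33 CPM in control eTregs and 11.4, 11.7, 10.1 and 8.73 CPM in Atg14-deficient eTregs, without overlap (1.05 ± 0.37, unadjusted p = 0.0083, adjusted p = 0.472).

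Nfil3 -127 kb (chr13:53109531-53109919), in the 3' UTR of Ror2, had 7.81, 4.72 and 5.41 CPM in control and 13.2, 10.0, 8.47 and 15.7 CPM in Atg14-deficient eTregs, apart from each other (1.00 ± 0.33, unadjusted p = 0.00463, adjusted p = 0.437). Myb +1.96 kb (chr10:21158666-21159387), in a Myb intron, had 13.7, 14.7 and 18.6 CPM in control and 27.0, 21.8, 23.3 and 21.1 CPM in Atg14-deficient eTregs, likewise without overlap (0.56 ± 0.22, unadjusted p = 0.015, adjusted p = 0.529). In cTregs the smallest p was at Nfil3 -82.5 kb (chr13:53065262-53065472), with 0.978, 0.479 and 0 CPM (4, 2 and 0 reads) in control and 2.10, 3.11, 1.05 and 5.14 CPM in Atg14-deficient cTregs (2.29 ± 0.83, unadjusted p = 0.00948, adjusted p = 1). Next by p in cTregs came Bhlhe40 -1.05 kb, whose groups overlapped and whose value stayed under the fold threshold (-0.48, unadjusted p = 0.0126). It was followed by Maf +430 kb, also lower in Atg14-deficient cells (-0.96, unadjusted p = 0.0228), Irf4 +43.2 kb (0.51, unadjusted p = 0.0254) and Maf +295 kb (1.54, unadjusted p = 0.0256), each with adjusted p = 1.

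By gene, all 10 regions of Ikzf3 had a log2 fold change above 0 in eTregs, with a median of 0.51, and its locus total was 27.0, 43.8 and 24.7 CPM in control eTregs against 50.0, 41.8, 46.6 and 56.0 CPM in Atg14-deficient eTregs (0.62 ± 0.21, unadjusted p = 0.00605, adjusted p = 0.21). These groups overlapped through control eTreg replicate 2. Irf4 had a median of 0.47 with 17 of 24 regions above 0 and a locus total that was higher by 0.32 (unadjusted p = 0.0107, adjusted p = 0.257), Batf a median of 0.41 and a total higher by 0.35 (unadjusted p = 0.0265, adjusted p = 0.326), and Maf a median of 0.26 with 41 of 54 above 0. The totals of Nfil3 (-0.02), Prdm1 (0.06) and Id2 (-0.09) were closest to 0. The 95% intervals of these 3 differences, -0.26 to 0.23, -0.12 to 0.24 and -0.26 to 0.09, bound how large they could be. None of the 9 totals was called in eTregs (background 0.144%) or in cTregs (background 0.059%). The promoter of Batf had 18.6, 23.0 and 9.36 CPM in control cTregs and 21.4, 28.8, 31.0 and 23.1 CPM in Atg14-deficient cTregs, which overlapped (0.59 ± 0.28, unadjusted p = 0.0427), and the difference in eTregs was 0.53 (95% interval -0.04 to 1.1).

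**Figure D5:**
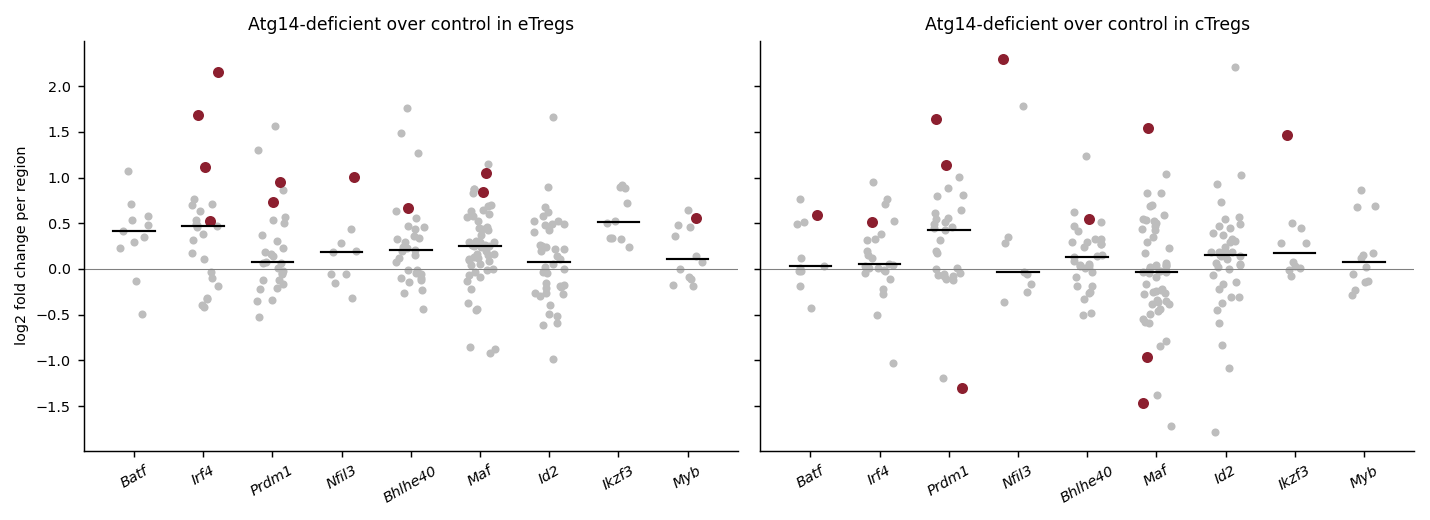
Log2 fold change of Atg14-deficient over control cells for every tested region of the 9 genes, in eTregs (left) and cTregs (right). Red points passed the unadjusted threshold (11 in each panel), black lines are medians, and in eTregs all red points and the 10 points of Ikzf3 lie above 0.

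The interaction, which tests whether the change between states differs between genotypes, called none of the 220 regions and none of the 61366 (0%), and likewise no locus total (0%). At the unadjusted threshold 7 regions (3.18%) passed, beside 3.05% of all tested regions, 6 with a higher and 1 with a lower change in Atg14-deficient cells. The count was 12 without control cTreg replicate 3 (5.45%, background in that fit 3.37%), 11 without Atg14-deficient cTreg replicate 4 (5.02%, background 4.05%), and 11 (5%) with the promoter share as a covariate (background 4.25%) or with same-numbered cTreg and eTreg libraries as pairs (background 4.52%). They were Maf +430 kb (1.80 ± 0.54, unadjusted p = 0.00239), Irf4 +75.9 kb (2.17 ± 0.78, unadjusted p = 0.00914), Irf4 -16.1 kb (1.67 ± 0.67, unadjusted p = 0.0184), Maf +192 kb (1.30, unadjusted p = 0.019), Irf4 +4.96 kb (1.79, unadjusted p = 0.0214), Myb +1.96 kb (0.71, unadjusted p = 0.027) and, in the other direction, Prdm1 +68.5 kb (-1.67, unadjusted p = 0.0278). The adjusted p by edgeR was 1 for each. Therefore the regions called in 1 genotype only are not shown to differ between genotypes.

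For comparison, the regions of 9 genes of the central Treg program, Tcf7, Lef1, Bach2, Id3, Klf2, Foxo1, Satb1, Foxp1 and S1pr1, numbered 318, of which 291 were tested. Of these, 53 were lower and 2 higher in control eTregs (18.9% called) and 51 lower and 6 higher in Atg14-deficient eTregs (19.6%). Satb1 alone had 17 lower regions of 43 in each genotype and Bach2 10 and 12 of 55. The median log2 fold change of these regions was -0.61 in controls, against 0.09 over the regions of the effector factors. The loci of effector program genes such as Il10, Icos, Ctla4 and Klrg1 had 160 tested regions. Of these, 9 were higher and 7 lower in controls (10%, background 5.3%) and 17 higher and 10 lower in Atg14-deficient cells (16.9%, background 9.81%). Il10, the cytokine gene that BLIMP-1 and c-MAF are known to act on, had 5 higher regions and none lower of 13 in each genotype (38.5%, beside the 5.3% and 9.81% of all tested regions given above). Ctla4 and Icos had more lower than higher regions. Ctla4 had 0 higher and 4 lower regions of 22 in controls and 3 and 4 in Atg14-deficient cells. Icos had 1 higher and 2 lower of 32 in controls and 1 and 5 in Atg14-deficient cells. Tigit, of 21 regions, had 1 higher and 0 lower in controls and 2 and 0 in Atg14-deficient cells.

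Motif content was counted in the central 200 bp of each region. AP-1 letters stood in 40 of the 220 regions of the effector factors (18.2%) and in 11.5% of the 61322 tested regions with sequence. Beyond 1000 bp of a start, where most of the regions lie, the shares were 18% and 13.8%. Prdm1 had 11 of these regions, Id2 9, Bhlhe40 8, Maf 5, Irf4 4, Myb 2 and Ikzf3 1, while no region of Batf or Nfil3 had the letters. The composite of BATF and IRF stood in 2 regions, Prdm1 +49.2 kb and Id2 -264 kb (0.909%, background 0.285%). A second form, with the IRF core directly before AP-1, stood in 1 region, Prdm1 +40.1 kb (0.455%, background 0.321%). Ets letters were found in 21.4% (background 17.8%), Myb letters in 20.5% (26.6%), TCF-1 letters (CTTTGAA) in 7.27% (5.05%), Ikaros letters in 15% (13.6%) and the NFIL3 site (TTACNTAA) in 1.36% (1.49%). Of the 15 regions higher in eTregs in either genotype, 3 (20%) had AP-1 letters, beside 23.2% of all regions higher in eTregs. Of the 17 lower ones, 4 (23.5%, 95% interval 9.6 to 47.3%) had AP-1 letters, beside 9.17% of all regions lower in eTregs. Myb letters stood in 8 (47.1%, 95% interval 26.2 to 69.0%), beside 27.7%, which this interval includes. Over whole regions the shares were 23.5% beside 16.6% for AP-1 and 58.8% beside 49% for Myb. With so few regions and several motifs searched, no enrichment is shown. These are descriptions of letters, not of binding.

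Across the 14 libraries the locus totals of the factors fell into patterns, given here as Pearson correlations of log2 CPM over all 4 groups together. Differences between cell states and genotypes therefore enter these correlations. Irf4 went with Bhlhe40 (r = 0.844) and Myb (0.763) and against Nfil3 (-0.708), and Nfil3 against Myb (-0.829). Maf went with Ikzf3 (0.803) and Batf with Ikzf3 (0.711). Among 7960 genes compared, the totals most like those of Irf4 were of Jak1 (0.95) and St3gal1 (0.944), the most like Nfil3 of the B cell marker Pax5 (0.959), the most like Bhlhe40 of Aff3 (0.956) and Olfr266 (0.954), and the most like Myb of Adamts14 and Ptk2 (both 0.954). For Maf they were Rnf19b (0.934) and Atf6 (0.92), for Prdm1 Lif (0.886) and Ccn4 (0.874), for Batf Bptf (0.9) and Slc36a3 (0.896), for Id2 Cfap43 (0.891) and Epas1 (0.825), and for Ikzf3 BC049352 (0.965) and Csk (0.933).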

How the data were processed

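ATAC-seq libraries of control and Atg14-deficient cTregs and eTregs (14 in 4 groups) were analysed from the table of raw counts that the authors deposited, whole numbers of nucleosome-free reads in 67254 merged regions. Per the labels, cutadapt 1.9, Picard 1.65, SAMtools, MACS2 2.1.0.20150603 and bedtools were used on mm10/GRCm38. The methods of the study name Trimmomatic, BWA and mm9 instead, keep peaks found in at least 50% of replicates and merge them. All 67207 regions on chromosomes lie within the ends of the GRCm38 chromosomes, and this build was used with RefSeq annotation. Between 74.7% and 87% of the counts of a library were even numbers, so that both ends of a fragment appear to have been counted in most regions, and counts overstate independent fragments.

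Counts were fitted in R 4.3.3 with edgeR 4.0.16 (quasi-likelihood, robust) over all tested regions, with libraries scaled by total count and a coefficient for each group, and p-values were adjusted over all 61366 tested regions. The biological coefficient of variation was 25.6%. On simulated data for controls with 61366 regions, 128 of 200 regions changed 4-fold and 34 of 200 changed 2-fold were recovered. Beside these, 19 and 7 regions that had not been changed were called. Between 3 and 4 libraries an exact permutation test of a single value cannot give a p below 0.0571. CPM, locus totals, motif counts and correlations of log2 CPM (prior count 2) were computed in Python 3.11.15 with pandas 2.3.3 and SciPy 1.17.1, and figures drawn with matplotlib 3.10.9. DESeq2 1.42.0 was run as an alternative, as were the settings named in the closing section.

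The genes, the comparison lists, the motifs and the rule for naming regions were chosen with earlier results of these data known. Named were, per gene, the promoter region with the highest count within 1000 bp of a start and, by direction, the 2 called regions with the smallest p in the control comparison of states, and per comparison of genotypes the 5 regions with the smallest p. Further regions outside this rule were mentioned after their values or motifs were seen. Replicate numbers are shared between groups. Deviations from the group means of same-numbered control and Atg14-deficient libraries correlated at -0.217 to 0.091, so these do not pair. Same-numbered cTreg and eTreg libraries correlated at 0.119 to 0.243 in Atg14-deficient chimeras, above 0.1 in every pair, and at 0.054 to 0.209 in control chimeras, where 1 pair was below it. Results for some genes are not reported here.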

Additional observations from a re-analysis of the deposited data

Results flagged for a closer look

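In 6 of 90 groups of 4 libraries examined, the highest or lowest library stood apart from the others of its group by more than Dixon's 95% critical value for 4 samples allows, where chance alone would do so in about 1 group in 20. In Atg14-deficient eTregs, the highest library had 16.7 CPM at Myb -0.1 kb (group median 11.1), the lowest had 4.37 CPM at Ikzf3 -0.061 kb (median 8.38), and the lowest had 5.91 CPM at Id2 -113 kb (median 12.1). In Atg14-deficient cTregs, the lowest library had 3.15 CPM at Irf4 +75.9 kb (median 5.62), the highest had 107.5 CPM at Bhlhe40 -0.036 kb (median 92.5), and the highest had 89.3 CPM for the Nfil3 locus total (median 70.6).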

How the results depend on the processing

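The calls between states moved with the filter on counts and with single libraries. A filter of at least 10 counts in every library left 92 of the 220 regions in the test. Of these, 9 were called in controls (9.78%, background in that fit 6.22%) and 16 in Atg14-deficient cells (17.4%, background 12.4%). The threshold on unadjusted p was passed by 6 in eTregs (6.52%, background 7.12%), 3 in cTregs (3.26%, background 2.76%) and 1 in the interaction (1.09%, background 3.4%). When the share of counts in promoters entered the fit as a covariate, the numbers were 36 (controls, background 11.1%), 55 (Atg14-deficient, background 17.7%) and 11 (interaction, background 4.25%). A log2 fold change beyond 1 left 19 in Atg14-deficient cells, 5 in eTregs and 7 in cTregs. Regions within a gene body gave 3, 5, 2, 1 and 2, and regions within 50000 bp of a start 7, 13, 6, 4 and 3, for controls, Atg14-deficient cells, eTregs, cTregs and the interaction. In cTregs 5 passed when only the compared groups were fitted and 6 with halved counts (3.66%, background in that fit 3.22%). No share over all tested regions is given here for the stricter fold, the subsets of regions or the compared groups fitted alone. Those counts are therefore not read against a background. For the interaction, fitting only the compared groups is the main fit and was not run. DESeq2 called 20 regions between states in controls (9.09%, background 6.82%) and 31 in Atg14-deficient cells (14.1%, background 11.7%). It called 0 between genotypes (background 0.0782% in eTregs and 0.0293% in cTregs).

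Leaving out 1 library gave 6 to 20 called regions in controls, lowest without control cTreg replicate 1 (6), eTreg replicate 1 (6), cTreg replicate 3 (8), eTreg replicate 3 (9) and eTreg replicate 2 (10). In Atg14-deficient cells the range was 12 to 40, with 12 without cTreg replicate 3, 16 without eTreg replicate 4 and 18 without eTreg replicate 1. The highest, 40 without cTreg replicate 4, was 18.3% beside 12.1% of all tested regions in that fit. In eTregs 9 to 26 passed the unadjusted threshold (26 without Atg14-deficient replicate 2 and 19 without control replicate 2), in cTregs 7 to 15 (7 without Atg14-deficient replicate 1) and in the interaction 5 to 12 (12 without control cTreg replicate 3 and 11 without Atg14-deficient cTreg replicate 4). The shares over all tested regions in the other fits named here are given with the results above. Locus totals called in controls were 1 to 2, with 1 without control cTreg replicate 2.

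With the replicate number as a block, 19 regions were called in controls (8.64%, background 6.14%) and 28 in Atg14-deficient cells (12.7%, background 10.6%). With the block nested in genotype, which takes same-numbered cTreg and eTreg libraries as a pair, 36 were called in controls (background 10.4%), 40 in Atg14-deficient cells (background 15.5%), and 11 passed in the interaction (background 4.52%). In each of these 7 pairs the libraries with the same number correlated best, a hint from the data and not from the labels.

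Whole regions in place of the central 200 bp held AP-1 letters in 25.5% (17.5% of all tested regions) and Ets letters in 35.5% (27%) of regions. Values that changed sign were close to 0 and not called. With the promoter share as a covariate Prdm1 -0.077 kb became -0.030 in controls and -0.106 in Atg14-deficient cells, and Ikzf3 -0.061 kb became 0.077 in Atg14-deficient cells. GC loess offsets gave Prdm1 -0.077 kb -0.038, and -0.022 with the replicate block, in Atg14-deficient cells. With single libraries left out, Prdm1 -0.077 kb ranged from -0.058 to 0.146 in controls and from -0.049 to 0.180 in Atg14-deficient cells, Ikzf3 -0.061 kb from -0.162 to 0.177 and Myb -0.1 kb from -0.39 to 0.020 in Atg14-deficient cells, and Id2 -171 kb from -0.412 to 0.045, Batf -0.134 kb from -0.500 to 0.024 and Maf -0.723 kb from -0.041 to 0.180 in controls. The cause of these changes was not tested. Of the other values of named regions, 1479 kept their direction and side of the threshold, 107 lost and 7 gained significance. Locus totals are not among these values.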
